A study of Mus musculus with 8 samples.

Results

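Mitochondria make few of their own proteins, and the rest are built in the cytosol and brought in by a set of membrane translocases, chaperones and a processing peptidase. The transcripts of this mitochondrial protein import machinery were measured in acute myeloid leukemia (AML) cells taken from mice given AG636 or vehicle. AG636 inhibits DHODH, the inner membrane enzyme that carries out the ubiquinone-linked step of pyrimidine synthesis. The members are 37 mouse genes listed by symbol, covering the translocases of the outer and inner membranes, the import motor, the matrix processing peptidase, the disulfide relay and the sorting and assembly machinery, and all 37 were found by Ensembl identifier among the 54838 genes of the table. No measured value entered their choice as members, although earlier results of these data were known when they were proposed.

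Both groups consisted of AML cells of RUNX1-RUNX1T1 genotype on a C57BL/6 background, carried in Ptprca mice. The labels give a sub-lethal irradiation of these recipients, whereas the study's methods name irradiation only for its other leukemia models. In the AG636 group, 4 samples came from mice dosed with 100 mg/kg by oral gavage b.i.d., and 4 Vehicle samples served as controls. The study describes sorted cells selected on cKit after 1 day of treatment, from an established transplantable tumor, so that the groups share a single leukemia model. Cells came from bone marrow and spleen, and the labels do not say which sample came from which tissue or whether each sample was a separate mouse. A legend of the study counts fewer mice in each group than there are samples here, so that samples may share an animal. The p-values below therefore measure the spread between these samples, part of which may be technical. In bulk RNA of this kind, fewer cells of a type and less RNA per cell cannot be told apart.

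Precursors reach the outer membrane with cytosolic chaperones, are recognized by receptors of the TOM complex and cross through its channel. From there, proteins with a cleavable presequence pass the TIM23 complex and are pulled into the matrix by the motor built around the Hsp70 protein mortalin, where the processing peptidase removes the presequence. Carrier proteins instead travel with small Tim chaperones to TIM22, small cysteine-rich proteins are trapped in the intermembrane space by the disulfide relay, and outer membrane barrels are inserted by the SAM complex.

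RefSeq promoters (GRCm38.p6, 250 bases before to 50 after each annotated start) were matched by symbol for 32 of the 37 members, which have 34 promoters between them. Grpel2, Hspa9, Timm21, Tomm7 and Tomm40l had none in the table. Both strands were searched for the ETS motif CCGGAAG, the YY1 motif GCCATNTT, the NRF1 core GCGCATGC and the E-box CACGTG, since factors of these families are known to bind promoters of nuclear genes for mitochondria. A few windows of members that were lower in AG636 are shown because they hold the searched letters close to the start. They were picked after the matches had been seen. Each runs from 100 bases before to 30 bases after the start, 5′ to 3′ on the strand of the gene, and capitals mark the motif matches.
Grpel1, chr5:36465085-36465214, plus strand: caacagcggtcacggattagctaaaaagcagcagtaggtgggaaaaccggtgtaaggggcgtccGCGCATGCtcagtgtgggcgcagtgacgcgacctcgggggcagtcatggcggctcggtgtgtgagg
Timm10, chr2:84826921-84827050, plus strand: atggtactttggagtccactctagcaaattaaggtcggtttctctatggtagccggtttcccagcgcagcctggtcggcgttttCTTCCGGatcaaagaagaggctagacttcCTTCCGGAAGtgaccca
Timm50, chr7:28312017-28312146, minus strand: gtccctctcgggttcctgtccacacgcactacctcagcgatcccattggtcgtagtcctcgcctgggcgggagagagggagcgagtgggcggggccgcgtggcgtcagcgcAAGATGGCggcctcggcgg
Tomm22, chr15:79670768-79670897, plus strand: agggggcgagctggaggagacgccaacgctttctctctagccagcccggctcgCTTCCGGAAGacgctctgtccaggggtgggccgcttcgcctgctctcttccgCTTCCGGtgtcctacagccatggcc
Tomm70a, chr16:57121614-57121743, plus strand: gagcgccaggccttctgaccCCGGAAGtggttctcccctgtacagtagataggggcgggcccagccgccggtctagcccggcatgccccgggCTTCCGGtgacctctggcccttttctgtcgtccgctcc

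The Grpel1 window holds an NRF1 core and the Timm50 window a YY1 match just past the start. Timm10, Tomm22 and Tomm70a hold ETS matches, which in Timm10 and Tomm22 include a pair that overlap on opposite strands. An E-box of Timm10 crosses the end of its window and is not capitalized. Over the 34 member promoters, 15 held the ETS motif (44.1%), against 19.8% of the 10404 promoters of genes tested and 8.86% of all 32851 promoters in the table. ETS matches were found in 7 of 15 promoters of members called lower and in 7 of 16 promoters of members tested and not called. The share with an ETS match was therefore similar in called and uncalled members, and the difference was not tested. The 2 promoters of Tomm34 overlap and share an ETS site, and both are in these counts. The YY1 motif was in 4 member promoters (11.8%, against 9.40% for genes tested), the E-box in 4 (11.8%, against 10.2%) and the NRF1 core in 2 (5.88%, against 5.62%). By group, the YY1 motif was in 1 of 15 promoters of called members and in 3 of 16 of those not called, the E-box in 3 of 15 and 1 of 16, and the NRF1 core in 2 of 15 and 0 of 16. These are matches of letters in a short window, and no binding was measured.

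The libraries were QuantSeq 3′ libraries, which read the 3′ end of polyadenylated transcripts, and held 6120030 to 7162036 counts each. Member levels are given as CPM, counts scaled to a common library size, which for such libraries follow transcript number without division by length. The 37 members took 0.237 to 0.352% of the counts of a sample. Kit was measured at 152.6 to 252 CPM, with Myb and Runx1 also well expressed, whereas Mpo reached at most 33 counts and Cd33 and Itgam at most 4. Erythroid markers summed to 2600 to 6377 CPM in Vehicle and 5073 to 6538 CPM in AG636, and all 9 of those measured passed the filter. Of these, 8 had a positive log2 fold change. Hbb-bt was called higher by limma, and edgeR and DESeq2 each called 2 higher. Slc4a1 just missed the limma threshold (log2 fold change 1.58, adjusted p in limma = 0.0501). B cell markers summed to 16.3 to 38.5 CPM against 25.4 to 109 CPM, and all 6 tested had positive estimates. Cd79a was called higher by limma, while edgeR called 1 gene of this list higher and DESeq2 none. At an unadjusted p under 0.05, limma found 2 B cell markers and 2 erythroid markers higher. The summed levels in Vehicle and AG636 were 8.67 to 15.3 and 10.5 to 25.4 CPM for T and NK cell markers, 54.9 to 107 and 30.0003 to 194 CPM for mature myeloid markers, and 873 to 990.2 and 981 to 1182 CPM for progenitor markers, with no gene called in these 3 lists by limma, edgeR or DESeq2 and 4 higher at an unadjusted p under 0.05 (1 mature myeloid, 3 progenitor). The part of these cell markers in the results on import genes was not tested.

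Import machinery transcripts were lower in AG636 than in Vehicle across much of the list. Of the 34 members with enough counts to test, 15 were called lower (44.1%) and none higher by limma at an adjusted p under 0.05, where 8.49% of all 10911 genes tested were called lower and 5.47% higher. Tomm5, Tomm20, Tomm22, Tomm40 and Tomm70a of the outer membrane translocase and its receptors were called, with the cytosolic cochaperone Tomm34. Also called were both genes of the disulfide relay (Chchd4 and Gfer) and the small Tim genes Timm9, Timm10 and Timm13. The rest were the TIM23 receptor Timm50, the motor genes Hspa9 and Grpel1, and the peptidase gene Pmpca. The absence of higher calls held with edgeR and with DESeq2, and 1 member, Timm17b, was higher at an unadjusted p under 0.05 against 19 that were lower. In 17 of the 34 members every AG636 sample was below every Vehicle sample, a pattern found in 12.9% of all genes tested. These 17 were the 15 called members with Tomm7 and Timm44. No member had every AG636 sample above every Vehicle sample.

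The fold changes were moderate. The median log2 fold change was −0.29 over the 34 tested members, −0.63 over the called and −0.18 over the uncalled, with −0.0056 over all genes tested. Negative estimates were obtained for 33 of 34, and Timm17b was the exception. Summed over all 37 members, Vehicle samples 1 to 4 held 3116, 3077, 3283 and 3563 CPM and AG636 samples 1 to 4 held 2515, 2407, 2385 and 2584 CPM. The groups did not overlap, and the AG636 mean was 75.9% of the Vehicle mean (2473 ± 93.3 against 3260 ± 221 CPM, SD, n = 4 each). The sum is set mostly by the abundant members and repeats values given gene by gene below.

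Vehicle sample 4 was the highest Vehicle sample for 22 of the 34 members, and it also had the lowest erythroid marker sum (2600 CPM, against 3864 to 6377 CPM in the other Vehicle samples). Without it 12 members were called lower, and the median over the members was −0.22. Among the 15 called members, AG636 sample 4 was the highest AG636 sample in 9. Between replicates, the median coefficient of variation was 9.60% in Vehicle and 13.1% in AG636 for the members and 10.97% and 16.04% for all genes tested. Vehicle means ranged from 4.83 CPM for Timm8a1 to 424 CPM for Tomm7, with a median of 63.5 CPM, against 30.5 CPM for all genes tested. The median was 103.9 CPM for the called and 48.9 CPM for the uncalled members. Abundant genes are easier to call, and the part of level in the share of calls was not tested. Across the 34 members the log2 level in Vehicle and the log2 fold change had a Pearson's r of −0.16 and a Spearman's rho of −0.22, a description over genes that share the same 8 libraries.

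**Figure D1:**
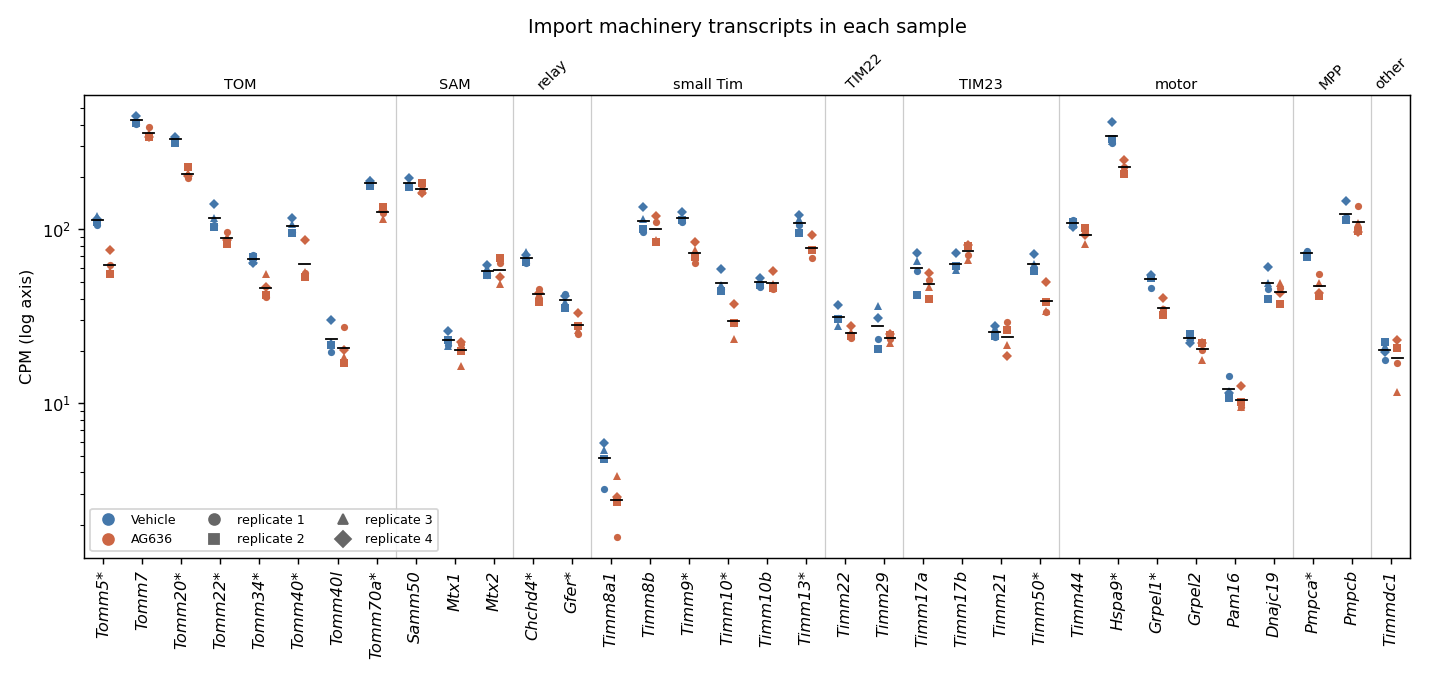
Level of each tested import machinery gene in every sample (CPM, log axis), grouped by role, with Vehicle in blue, AG636 in orange, marker shapes for replicate numbers, black lines for group means and an asterisk for the 15 genes called lower. Tomm20 sits at 316 to 341 CPM in Vehicle and 197 to 227 CPM in AG636, whereas the Mtx2 groups overlap.

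**Figure D2:**
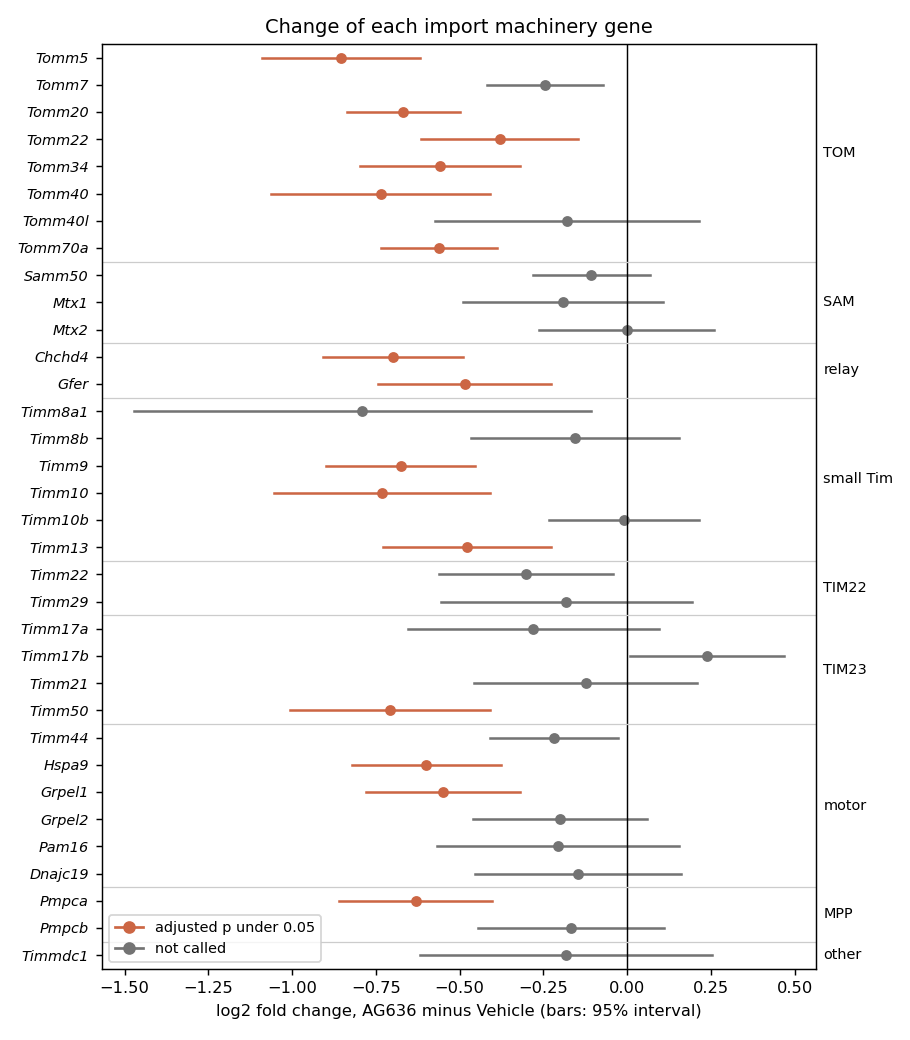
Log2 fold change (AG636 minus Vehicle) of each tested import machinery gene from limma with its 95% interval, orange where the adjusted p is under 0.05 and gray elsewhere, with 0 marked by the vertical line. All 15 orange points lie between −0.85 (Tomm5) and −0.38 (Tomm22), and Timm17b at 0.24 is the single point to the right of 0.

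In the TOM complex, receptors, channel and a small subunit were lower. Of the 8 tested members listed with this complex, 6 were called lower, with a median log2 fold change of −0.56. This list includes the cytosolic cochaperone Tomm34. Tomm20 (ENSMUSG00000093904, chr8:126930667-126945844, minus strand), the receptor for presequences, was measured at 335, 316, 339 and 341 CPM in Vehicle samples 1 to 4 and 197, 227, 211 and 203 CPM in AG636 samples 1 to 4. The gap between the groups was wide beside the spread within either. Its log2 fold change was −0.67 (standard error 0.076, adjusted p in limma = 0.0017). Tomm70a (ENSMUSG00000022752, chr16:57121703-57156705, plus strand) encodes the receptor that docks Hsp70 and Hsp90 carrying precursors with internal signals. It stood at 180.4, 177, 192 and 189 CPM in the Vehicle samples and 124, 134, 115 and 127 CPM in the AG636 samples. Here too the lowest Vehicle sample was above the highest AG636 sample, and the log2 fold change was −0.56 (standard error 0.078, adjusted p in limma = 0.0025). For Tomm22 (ENSMUSG00000022427, chr15:79670861-79673400, plus strand), the receptor that also holds the complex together, the Vehicle samples had 107, 104, 116 and 139 CPM and the AG636 samples 96.4, 82.5, 90.5 and 86.6 CPM. Vehicle sample 4 was the highest and the remaining Vehicle samples were nearer to the AG636 range, with a log2 fold change of −0.38 (standard error 0.11, adjusted p in limma = 0.0379). The Tomm22 call was lost in 8 of 19 alternative settings, among them library size alone and the analysis without Vehicle sample 4.

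Tomm40 (ENSMUSG00000002984, chr7:19701313-19715438, minus strand) encodes the barrel that forms the import pore. Vehicle samples held 96.9, 94.8, 108 and 116 CPM and AG636 samples 56.3, 53.0, 57.0 and 87.0 CPM. AG636 sample 4 was far above the rest of its group and still below each Vehicle sample. The log2 fold change was −0.73 (standard error 0.15, adjusted p in limma = 0.0106). Tomm5 (ENSMUSG00000078713, chr4:45105208-45108114, minus strand), a small subunit that sits beside the pore, had the most negative estimate of the called members, with 105, 111, 120.1 and 115 CPM in Vehicle and 62.4, 55.2, 57.6 and 75.7 CPM in AG636. Its AG636 mean was 55.6% of the Vehicle mean, and the log2 fold change was −0.85 (standard error 0.11, adjusted p in limma = 0.0019). Tomm34 (ENSMUSG00000018322, chr2:164053540-164071169, minus strand), a cytosolic cochaperone of Hsp70 and Hsp90 for precursors, was at 71.2, 69.3, 66.1 and 64.1 CPM in Vehicle and 41.1, 41.7, 55.7 and 46.7 CPM in AG636. Groups were again separate, with AG636 sample 3 the highest of its group, and the log2 fold change was −0.56 (standard error 0.11, adjusted p in limma = 0.0090).

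Tomm7, a small subunit with the highest level of all members, had 405, 409, 429.9 and 452 CPM in Vehicle and 389, 341, 359 and 342 CPM in AG636. These groups did not overlap, yet the log2 fold change of −0.25 (95% interval −0.42 to −0.071) missed the threshold (adjusted p in limma = 0.0619), and it passed with DESeq2 and without the filter on low counts. Tomm40l, the less abundant relative of Tomm40, overlapped between the groups at 23.5 ± 4.57 CPM in Vehicle and 20.8 ± 4.67 CPM in AG636 (SD, n = 4 each), a log2 fold change of −0.18 (95% interval −0.57 to 0.22). Tomm6, another small subunit, was not tested because it had 18 counts in all, at most 6 in a sample. A share of 68.9% of the 50-base stretches in its last 400 transcript bases also occurs in other annotated genes, and Gm21981 shares 859 exon bases with it on the same strand. How reads in such overlaps were assigned was not stated, so that the low count of Tomm6 cannot be read as a low level.

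No member of the sorting and assembly machinery was called. For Samm50, the barrel that inserts other barrels into the outer membrane, Vehicle averaged 184 ± 9.75 CPM and AG636 171 ± 10.2 CPM (SD, n = 4 each), with a 95% interval of the log2 fold change from −0.28 to 0.067. That interval leaves out a decrease of the size measured for Tomm20. The metaxins, its partners on the cytosolic face, gave log2 fold changes of −0.19 for Mtx1 (95% interval −0.49 to 0.11) and −0.0019 for Mtx2 (95% interval −0.26 to 0.26). Mtx2 had the estimate nearest to 0 of all members, at 58.0 ± 3.75 CPM in Vehicle and 58.4 ± 9.14 CPM in AG636, and its sign changed with the scaling. None of the 3 passed an unadjusted p of 0.05, and edgeR and DESeq2 called none of them.

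Both genes of the disulfide relay of the intermembrane space were lower. Chchd4 (ENSMUSG00000034203, chr6:91462172-91473546, minus strand) encodes the oxidoreductase that binds incoming cysteine-rich precursors and forms their disulfide bonds. Its Vehicle samples held 64.2, 64.9, 73.8 and 71.5 CPM and its AG636 samples 45.4, 38.0, 42.4 and 43.1 CPM. All 4 AG636 samples lay within a narrow range below the Vehicle samples, and the log2 fold change was −0.70 (standard error 0.095, adjusted p in limma = 0.0022). Gfer (ENSMUSG00000040888, chr17:24693187-24696156, minus strand), the sulfhydryl oxidase that reoxidizes the Chchd4 protein, was at 42.2, 35.2, 38.1 and 41.5 CPM in Vehicle and 25.0, 27.8, 26.3 and 33.1 CPM in AG636. AG636 sample 4 came close to Vehicle sample 2 without reaching it. The log2 fold change was −0.49 (standard error 0.12, adjusted p in limma = 0.0217), and the call was lost without Vehicle sample 1, 3 or 4 or without AG636 sample 1.

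Of 6 small Tim chaperones, which escort carrier and barrel precursors across the intermembrane space, 3 were called lower. The partners of the Timm9 and Timm10 hexamer were both lower. Timm9 (ENSMUSG00000021079, chr12:71123173-71136684, minus strand) had 111, 114, 118 and 126 CPM in Vehicle and 63.8, 69.0, 76.1 and 85.0 CPM in AG636. The Vehicle samples were close together and all higher, with a log2 fold change of −0.68 (standard error 0.10, adjusted p in limma = 0.0034). Timm10 (ENSMUSG00000027076, chr2:84826997-84830213, plus strand) had 45.6, 44.4, 47.7 and 58.9 CPM in Vehicle and 29.1, 28.9, 23.5 and 37.1 CPM in AG636. Sample 4 was the highest in each group, and the log2 fold change was −0.73 (standard error 0.15, adjusted p in limma = 0.0103). Timm13 (ENSMUSG00000020219, chr10:80899450-80900969, minus strand), which pairs with the Timm8 proteins, was at 106, 95.1, 115 and 121 CPM in Vehicle and 68.4, 75.8, 75.8 and 93.4 CPM in AG636. AG636 sample 4 was just under Vehicle sample 2, the log2 fold change was −0.48 (standard error 0.11, adjusted p in limma = 0.0201), and the call was lost in the same 4 analyses as that of Gfer.

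The other small Tim genes were not called. Timm10b, which binds the hexamer to TIM22, stayed at 49.5 ± 2.69 CPM in Vehicle and 49.3 ± 5.54 CPM in AG636 (SD, n = 4 each), with a log2 fold change of −0.0082 (95% interval −0.23 to 0.22) whose sign depended on the scaling. Timm8b, a partner of Timm13, gave −0.16 (95% interval −0.47 to 0.15). Timm8a1, the mouse counterpart of the deafness and dystonia gene, was the least abundant tested member, with 3.21, 4.76, 5.42 and 5.93 CPM in Vehicle and 1.71, 2.71, 3.83 and 2.89 CPM in AG636. Vehicle sample 1 lay inside the AG636 range. The estimate was large and imprecise, at −0.79 (95% interval −1.47 to −0.11, adjusted p in limma = 0.112), and rests on 199 counts over all 8 samples.

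The carrier translocase of the inner membrane had no gene called by limma, edgeR or DESeq2, and 1 of its 2 members was lower at an unadjusted p under 0.05. Timm22, its channel, was measured at 30.7, 30.6, 27.7 and 36.5 CPM in Vehicle and 23.6, 24.3, 25.5 and 27.9 CPM in AG636. The groups overlapped only through Vehicle sample 3 and AG636 sample 4. Its log2 fold change was −0.30 (95% interval −0.56 to −0.042, adjusted p in limma = 0.111). Timm29, a subunit that stabilizes the complex, gave −0.18 (95% interval −0.56 to 0.19), with a Vehicle spread of 27.7 ± 7.01 CPM against 23.8 ± 1.21 CPM in AG636 (SD, n = 4 each).

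In the presequence translocase, the receptor gene was lower and the channel genes were not called. Timm50 (ENSMUSG00000003438, chr7:28305516-28312072, minus strand) encodes the protein that receives presequences as they leave TOM. Its level was 59.7, 57.9, 63.4 and 72.0 CPM in Vehicle and 33.3, 38.5, 33.99 and 50.01 CPM in AG636. AG636 sample 4 was the highest of its group and remained under every Vehicle sample, and the log2 fold change was −0.71 (standard error 0.14, adjusted p in limma = 0.0083). Timm17b, an alternative channel subunit, had 60.5, 61.9, 58.6 and 73.5 CPM in Vehicle and 71.4, 80.8, 67.0 and 80.8 CPM in AG636. Only Vehicle sample 4 lay within the AG636 range. It was the one tested member with a positive estimate, 0.24 (95% interval 0.0098 to 0.47), which did not pass the threshold (adjusted p in limma = 0.147). Its relative Timm17a overlapped between groups, at 59.7 ± 13.5 CPM in Vehicle and 48.4 ± 6.83 CPM in AG636 (SD, n = 4 each), with a log2 fold change of −0.28 (95% interval −0.66 to 0.095). Timm21, which links TIM23 to TOM and to the respiratory chain, gave −0.12 (95% interval −0.46 to 0.21).

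Timm23 itself, the core of that channel, could not be tested. It had 61 counts over the 8 samples and at most 14 in a sample. Of the 50-base stretches in its last 400 transcript bases, 95.6% also occur in 7 other annotated genes, and reads of such stretches may not have been counted for it. The level of the central channel gene is therefore not known from these libraries.

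The import motor combined called and uncalled genes. Hspa9 (ENSMUSG00000024359) encodes mortalin, the matrix Hsp70 that pulls precursors inward, and was among the most abundant members. Vehicle samples had 316, 332, 324 and 414 CPM and AG636 samples 227, 209, 225 and 249 CPM. Vehicle sample 4 stood above the other Vehicle samples, which were nonetheless all above AG636, and the log2 fold change was −0.60 (standard error 0.10, adjusted p in limma = 0.0053). Its nucleotide exchange factor Grpel1 (ENSMUSG00000029198, chr5:36464998-36474080, plus strand) stood at 46.2, 52.6, 54.6 and 54.6 CPM in Vehicle and 35.0, 32.1, 34.6 and 40.0 CPM in AG636. Vehicle sample 1 was the lowest Vehicle sample and still exceeded AG636 sample 4. The Grpel1 log2 fold change was −0.55 (standard error 0.10, adjusted p in limma = 0.0082). The last 400 bases of its transcript overlap Tada2b on the opposite strand, and whether strand was used in counting was not stated.

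Timm44, the tether that holds mortalin at the channel, had 114, 110.3, 106 and 103 CPM in Vehicle and 96.0, 101, 82.5 and 93.4 CPM in AG636. The groups did not overlap, and the log2 fold change of −0.22 (95% interval −0.41 to −0.027) did not pass the threshold (adjusted p in limma = 0.117). Grpel2, the second exchange factor, gave −0.20 (95% interval −0.46 to 0.059). Among the J-domain proteins of the motor, Dnajc19 gave −0.15 (95% interval −0.45 to 0.16) and its inhibitory partner Pam16 −0.21 (95% interval −0.57 to 0.16), the latter from 592 counts with 96.9% of its 3′ stretches shared with Gm9803. Dnajc15 had 13 counts in all and at most 5 in a sample, and was not tested.

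Of the matrix processing peptidase, which cuts presequences from imported proteins, 1 of 2 subunits was called. Pmpca (ENSMUSG00000026926, chr2:26389339-26397122, plus strand), the subunit that recognizes the substrate, had 74.7, 69.5, 73.7 and 72.9 CPM in Vehicle and 55.5, 41.2, 49.0 and 43.2 CPM in AG636. The Vehicle samples spanned a narrow range and AG636 sample 1 was the highest of its group, with a log2 fold change of −0.63 (standard error 0.10, adjusted p in limma = 0.0048). Its 3′ end is shared in part with Inpp5e on the opposite strand. Pmpcb, the catalytic subunit, overlapped at 123 ± 14.8 CPM in Vehicle and 110.2 ± 18.6 CPM in AG636 (SD, n = 4 each), with a log2 fold change of −0.17 (95% interval −0.44 to 0.11). The difference between the subunits was not tested. Timmdc1, named as a translocase and known as an assembly factor of complex I, gave −0.18 (95% interval −0.62 to 0.25).

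Several steps of import are covered by 2 related genes, and the ratio within a pair was compared because it does not depend on library scaling. The 5 pairs were tested by a two-sided exact permutation of the 70 possible group assignments, whose smallest p is 0.0286. None passed 0.05 after adjustment over the 5 pairs. Several pairs would have to reach the smallest p together before any could pass. The absence of calls therefore does not show that the ratios were unchanged. The log2 ratio of Grpel1 to Grpel2 was 0.98, 1.07, 1.18 and 1.30 in the Vehicle samples and 0.79, 0.52, 0.96 and 0.85 in the AG636 samples. These groups did not overlap. The AG636 mean was lower by a log2 difference of −0.35 (exact permutation p = 0.0286, adjusted p = 0.143). For Tomm40 and Tomm40l the ratio averaged 2.15 ± 0.16 in Vehicle and 1.597 ± 0.44 in AG636 (SD, n = 4 each), a difference of −0.56 (exact permutation p = 0.0571, adjusted p = 0.143). AG636 sample 4, with a ratio of 2.10, lay inside the Vehicle range.

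For the channel pair Timm17a and Timm17b the log2 ratio averaged −0.12 ± 0.31 in Vehicle and −0.64 ± 0.25 in AG636 (SD, n = 4 each), a difference of −0.52 (exact permutation p = 0.114, adjusted p = 0.143). Vehicle sample 2, at −0.56, lay within the AG636 range. For Timm8b and Timm8a1 it averaged 4.53 ± 0.23 and 5.17 ± 0.63, a difference of 0.64 (exact permutation p = 0.0857, adjusted p = 0.143). The ratio of Dnajc15 to Dnajc19 rests on at most 5 Dnajc15 counts a sample, and its difference of 1.13 (exact permutation p = 0.200, adjusted p = 0.200) shrank to 0.52 when 5 counts in place of 0.5 were added to each gene.

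**Figure D3:**
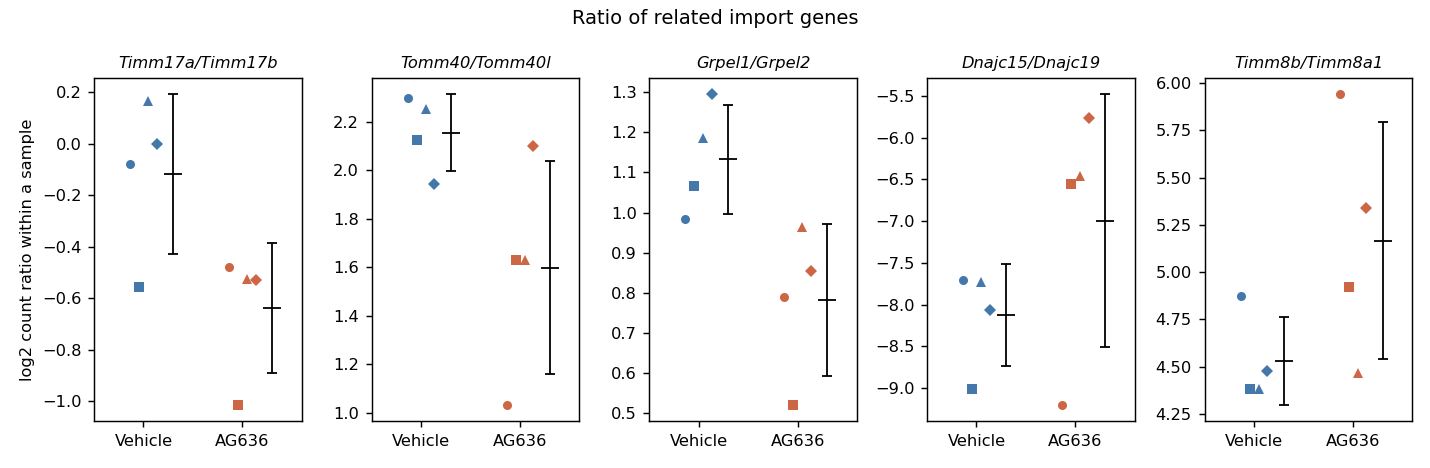
Log2 count ratio of 5 pairs of related import genes in each Vehicle (blue) and AG636 (orange) sample, with marker shapes for replicate numbers as in the plot of levels and bars for the mean and SD (n = 4). The y axis differs between panels and does not start at 0. The Grpel1/Grpel2 groups are separate (0.98 to 1.30 against 0.52 to 0.96), and the other panels overlap.

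Genes that act before, beside and after the import machinery were examined in 6 lists of related factors. Of 56 tested, 14 were called lower (25.0%) and none higher by limma, where 8.49% of all genes tested were called lower and 5.47% higher, and the median log2 fold change was −0.24. Lower calls numbered 13 with edgeR and 15 with DESeq2. Both also called none higher, while 1 was higher at an unadjusted p under 0.05. Of these 14, 8 were in the 2 chaperone lists. Upstream of import, 5 of 10 cytosolic targeting chaperones and nascent chain factors were lower. Hspa8, the constitutive Hsp70 that carries precursors to the TOM receptors, fell from 210.5 ± 7.21 to 117 ± 34.4 CPM (SD, n = 4 each; log2 fold change −0.89, adjusted p in limma = 0.0095). Hsp90ab1, its Hsp90 partner, had a log2 fold change of −0.50 (adjusted p in limma = 0.0209), and the Hsp70 cochaperone Dnaja2 one of −0.38 (adjusted p in limma = 0.0121). Dnaja1 (−0.50, adjusted p in limma = 0.0384) and the nascent chain factor Btf3 (−0.29, adjusted p in limma = 0.0396) completed the called genes of that list.

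Downstream of import, 3 of 6 matrix chaperones were lower. Hspd1, the Hsp60 that folds imported proteins, was at 435 ± 53.4 CPM in Vehicle and 249.7 ± 28.0 CPM in AG636 (SD, n = 4 each; log2 fold change −0.80, adjusted p in limma = 0.0022). Its lid protein Hspe1 had a log2 fold change of −0.69 (adjusted p in limma = 0.0022), and Trap1, the matrix Hsp90, one of −0.49 (adjusted p in limma = 0.0087). Hspd1 and Hspe1 take over from mortalin in folding imported proteins. Of 13 later proteases tested, 2 were called lower (15.4%, against 8.49% of all genes tested). They were Clpp (−0.52, adjusted p in limma = 0.0146), which degrades matrix proteins, and Pitrm1 (−0.38, adjusted p in limma = 0.04999), which degrades cleaved presequences. The Pitrm1 call was lost with edgeR (adjusted p in edgeR = 0.0519). Lonp1, the main matrix protease, gave −0.15 and was not called.

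Among other import and insertion factors 1 of 9 was called lower (11.1%, against 8.49% of all genes tested). This was Mtch1, of the outer membrane insertase family (log2 fold change −0.56, adjusted p in limma = 0.0161). Of 6 tested MICOS genes, which shape the cristae, 1 was called lower (16.7%), Immt (−0.38, adjusted p in limma = 0.0185). Of 12 tested regulators of nuclear genes for mitochondria, 2 were lower (16.7%). With 1 or 2 calls each, these shares rest on few genes, and their difference from all genes tested was not tested. Myc, which drives growth genes, averaged 97.6 ± 19.3 CPM in Vehicle and 56.6 ± 7.12 CPM in AG636 (SD, n = 4 each; log2 fold change −0.77, adjusted p in limma = 0.0087). Tfam, the factor that packages and transcribes mitochondrial DNA, had a log2 fold change of −0.42 (adjusted p in limma = 0.0090). Transcripts of Yy1 and Nrf1, whose motifs were searched above, gave −0.04 and 0.03 and were not called. Gabpa, Gabpb1 and Gabpb2 of the same list gave −0.28, −0.07 and 0.08 and were not called either. Ppargc1b (−0.49, adjusted p in limma = 0.0518) missed the threshold and passed with DESeq2 (adjusted p in DESeq2 = 0.0471). Ppargc1a had too few counts to test.

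Set beside mitochondrial ribosomal protein and respiratory chain subunit genes, the import genes had the largest share of calls of the 3 lists compared. Mitochondrial ribosomal protein genes were called lower in 20 of 77 (26.0%), with a median log2 fold change of −0.25, and respiratory chain subunit genes in 12 of 78 (15.4%), with a median of −0.12, against 15 of 34 (44.1%) and −0.29 for the import genes and 8.49% of all genes tested, whose median was −0.0056. None of either list was called higher by limma, against 5.47% of all genes tested, and edgeR and DESeq2 each called 1 respiratory chain gene higher. At an unadjusted p under 0.05, limma found 2 respiratory chain genes and 0 ribosomal protein genes higher. The rank holds for these 3 lists only. Among the related lists above, matrix chaperones (3 of 6, median −0.41) and cytosolic targeting chaperones (5 of 10, median −0.33) had larger shares than the import genes. The remaining related lists had smaller shares. These are counts of calls in lists of different size and level, and the differences between lists were not tested.

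**Figure D4:**
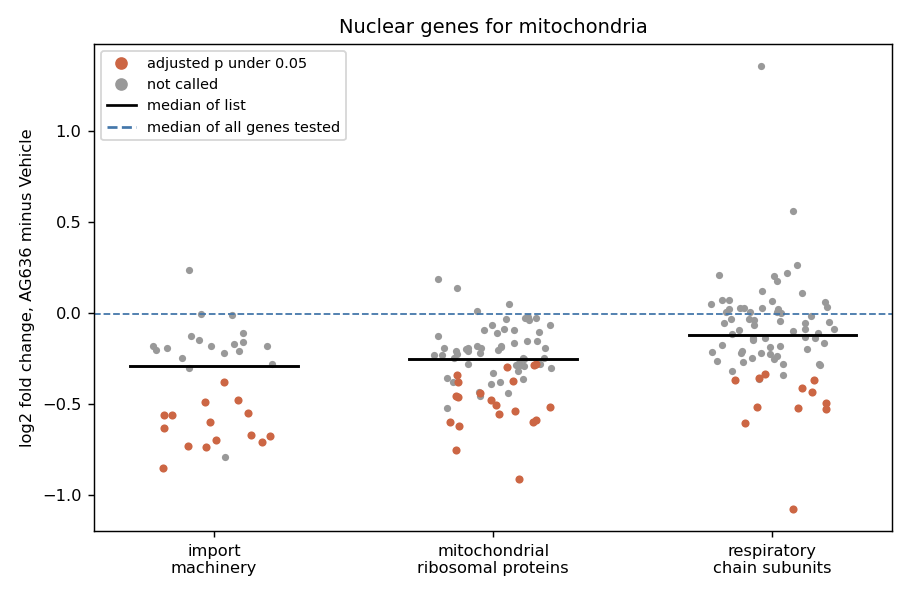
Log2 fold change (AG636 minus Vehicle, limma) of each tested gene of the import machinery (34 genes), the mitochondrial ribosomal proteins (77) and the respiratory chain subunits (78), orange where the adjusted p is under 0.05, with a black line at each median and a dashed line at the median of all genes tested. The medians are −0.29, −0.25 and −0.12, and the points of the 3 lists overlap over most of their range.

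Reads from near-identical copies and overlapping genes could touch further members. Beyond Timm23, Tomm6, Grpel1, Pam16 and Pmpca, the shared part of the 3′ stretches was 31.3% for Tomm40l, 21.4% for Mtx1, 19.1% for Timm10b, 17.9% for Tomm20, 17.1% for Dnajc19, 10.98% for Timm17a and 9.12% for Timm8b. Among the 7 genes that share stretches with Tomm20 is the processed pseudogene Gm14494, with 4 counts in all against 14204 for Tomm20. For Tomm5 2.79% was shared. The other called members shared none of these stretches with another annotated gene, which applies to Tomm22, Tomm34, Tomm40, Tomm70a, Chchd4, Gfer, Timm9, Timm10, Timm13, Timm50 and Hspa9.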

How the data were processed

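RNA of 8 sorted AML samples, 4 Vehicle and 4 AG636, was read with a QuantSeq 3′ kit. The deposited table holds whole-number read counts for each gene, not normalized. Per the labels, whose processing notes give the versions, the authors trimmed reads with cutadapt 1.9.1, mapped them to mm10 (GRCm38) with HISAT2 2.0.4 and counted them with featureCounts of Subread 1.5.0-p3. The study's methods give other versions of cutadapt and Subread. Use of strand and treatment of reads with several matches were not given in the sources used here. Such choices decide the counts of members with near-identical copies or overlapping neighbors. Every count column matched the title of 1 sample. Members were matched by Ensembl identifier through a name table, which left 115 of the 54838 genes without a symbol.

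Genes passing filterByExpr (minimum count 10) were compared with limma-voom (limma 3.58.1, edgeR 4.0.16 for TMM factors, R 4.3.3), with group as the only term, over all 8 samples. Tests were two-sided, with Benjamini-Hochberg adjustment over the 10911 genes tested and a threshold of 0.05. CPM values use the TMM-scaled library size. Ratios of related genes used counts with 0.5 added. The depth of 6120030 to 7162036 counts limits the precision of the least abundant members, and a level under 3 counts (0.419 to 0.490 CPM) cannot be read. Replicates of a group differed by more than counting noise (chi-square per degree of freedom 3.69 to 22.6), so no library was taken as a repeat deposit of another, which does not show that samples came from separate mice. The fit was also run on simulated counts, whose changes were set larger than those of any called member. Recovery of changes of the size reported here was not tested.

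The members, related lists, comparison lists and markers were chosen with earlier results of these data known. By rule, every called member was given with its value in each sample, the uncalled members with an interval, the most changed uncalled members by sample, and at most 4 called genes per related list in full, with any further called genes added. Tomm7 and Timm44 were given by sample because their groups did not overlap, a choice made after their values were seen. Transcript ends were compared with GENCODE M21 annotation, and promoters came from RefSeq (GRCm38.p6). Alternatives were 4 other fits (DESeq2 1.42.0, the quasi-likelihood test of edgeR, limma-trend, and voom weighted by sample quality), 3 other scalings (RLE, upper-quartile or no factors), 2 other filters (none, or 10 counts in all samples), removal of the genes of the mitochondrial chromosome, a block on replicate number, and leaving out 1 sample at a time. Protein sequences were not used here.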

Additional observations from a re-analysis of the deposited data

Results flagged for a closer look

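In 80 groups of 4 samples, each holding the values of a tested member, of a ratio of related genes or of the summed level of the members, the gap between an extreme sample and its nearest neighbor was divided by the range of the group and compared with Dixon's 95% critical value for 4 samples. Chance marks about 1 group in 20, so that 4 were to be found by chance, and 4 were found. Tomm40 in AG636 sample 4 was at 87.0 CPM, with the other AG636 samples at 53.0 to 57.0 CPM. Hspa9 in Vehicle sample 4 was at 414 CPM, with the others at 316 to 332 CPM. Pmpcb in the same Vehicle sample was at 145 CPM, with the others at 113 to 119 CPM. The log2 ratio of Timm17a to Timm17b in AG636 sample 2 was −1.02, with the others at −0.53 to −0.48.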

How the results depend on the processing

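Of the 15 import genes called lower, 12 were called in all 19 alternative settings and the estimates of all 15 stayed negative. Over the settings that kept all samples, 14 to 16 members were called lower, and 12 to 15 when a sample was left out (12 without Vehicle sample 1, 3 or 4). No setting called a member higher. The median log2 fold change of the members ranged from −0.38 without Vehicle replicate 2 to −0.22 without Vehicle replicate 4 and with library size alone, a scaling that moved the median of all genes to 0.064. Calls over all genes numbered 1202 to 1961 with all samples, 688 to 1706 when a sample was left out, and 798, 918, 688 and 1010 without Vehicle replicates 1 to 4, against 1523. With the replicate number as a block, 1446 genes and 15 members were called. None of the ratios of related genes passed the threshold with this block, but none could have passed. An exact test on 4 pairs has too few assignments to reach the threshold. The mean differences of the ratios are the same with and without pairing by arithmetic. The block therefore cannot show whether the results on the ratios hold. Replicate numbers do not pair the samples by the data. Correlations of the deviations of same-numbered samples ranged from −0.14 to 0.20, and 3 of 8 samples correlated best with their own number. The sign of Mtx2, −0.0019 in the report, turned to 0.0095 with edgeR, 0.028 with DESeq2, upper-quartile factors or 10 counts in every sample, 0.0100 with quality weights, 0.017 with RLE factors, 0.069 with library size alone, 0.016 with mitochondrial genes left out and 0.0030 with the block. The sign of Timm10b turned to 0.013 with DESeq2, 0.0042 with quality weights, 0.010 with RLE factors or mitochondrial genes left out, 0.022 with upper-quartile factors or 10 counts in every sample and 0.061 with library size alone. With a sample left out, the estimates ranged from −0.081 to 0.079 for Mtx2, from −0.069 to 0.037 for Timm10b, from −0.30 to 0.0096 (without AG636 replicate 3) for Timmdc1 and from −0.23 to 0.011 (without AG636 replicate 4) for Timm21. The cause of these changes was not tested. Depth left Tomm6, Timm23 and Dnajc15 untested.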
